A study of Mus musculus with 12 samples.

Results

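Transcripts of 10 genes of the T cell receptor (TCR) complex and its first signalling steps were followed across 12 RNA-seq libraries of mouse regulatory T cells (Tregs). The genes were taken by symbol from the count table: the CD3 chain genes Cd3e, Cd3d, Cd3g and Cd247, the coreceptor genes Cd4, Cd8a and Cd8b1, and Lck, Zap70 and Lat. All 10 were among the 26609 genes of the table and among the 13692 genes that passed the filter on low counts, so each was tested. The Tregs were flow-sorted as CD4+CD25hiCD127lo singlets from mesenteric lymph nodes of untreated SAMP/YitFC mice, a line that develops ileitis on its own. The labels name the cells intestinal regulatory T cells. SAMP/YitFC-ERb-KO mice lacked estrogen receptor beta (gene Esr2) and SAMP/YitFC-WT mice did not. The labels give 4 groups of 3 libraries, KO female, KO male, WT female and WT male, and no age. They do not say how the allele was made, or whether each library came from its own mouse, so the spread behind each p-value is that of these libraries and may be technical. The question set by the design is the effect of losing the receptor in each sex.

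An alpha-beta TCR has no signalling tail of its own. It is carried to the surface with pairs of CD3 chains, CD3 gamma with epsilon and CD3 delta with epsilon, and with a homodimer of the zeta chain that Cd247 encodes. When the receptor binds a peptide on MHC, the kinase Lck, which associates with the coreceptor CD4 or CD8, phosphorylates motifs in these tails. The kinase ZAP-70 docks there and phosphorylates the adaptor LAT, on which the machinery for calcium and Ras signalling assembles. CD4 binds MHC class II and CD8 binds MHC class I. Tregs need TCR signals for their suppressive function, and conventional lymph node Tregs carry CD4.

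Library totals ran from 10.2 to 14.8 M counts under the KO label and from 13.4 to 16.7 M under the WT label. Sex-linked transcripts (Xist and Y-linked genes) went against the titled sex in 4 libraries, KO female 1, KO male 1, KO male 2 and WT female 2. Esr2 had 2 to 161 counts in libraries labelled KO and 0 to 159 in libraries labelled WT, so its level did not follow the label. Which exons the allele removes is not stated in the labels. KO, WT, male and female therefore mean the title of a library throughout. Levels of Foxp3 and of the sort markers Il2ra and Il7r are given as a description, since no unsorted cells were there to compare. Foxp3, the Treg master regulator, had 740 ± 143 CPM (counts scaled to the size of the library) in the KO libraries, against 770 ± 109 CPM in WT (SD, n = 6 each). Il2ra (CD25) was at 759 ± 165 CPM in the KO libraries, against 817 ± 167 CPM in WT. Il7r (CD127) was at 171 ± 21.1 CPM in the KO libraries, against 200.2 ± 37.7 CPM in WT. All 3 genes had transcripts in every library. Ikzf2, also taken as a Treg marker, spread more under the KO label, from 98.5 to 476 CPM, against 240 to 361 CPM in WT. Together with Ctla4 and Cd4, these 6 markers summed to 2669 to 3433 CPM in KO and 2641 to 3543 CPM in WT.

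On a length scale, the kinase came first and the CD8 chains last. Lck averaged 772 ± 86.9 CPM per kb of exon over the 12 libraries (SD), and ranked 13 among the 13692 tested genes by CPM. Cd3g had 290 ± 60.7 CPM per kb, Lat 275 ± 52.0, Cd3d 274 ± 47.3 and Cd3e 240 ± 49.1. Within these 4, the step from one gene to the next was smaller than the SD of the higher gene. That SD is between libraries, and the order of the genes within a library was not compared here. Cd4 followed with 151 ± 19.5 CPM per kb. Zap70 had 87.3 ± 16.5 CPM per kb and Cd247 72.3 ± 12.3, again within the spread. Cd8b1 had 9.26 ± 3.46 CPM per kb and Cd8a 2.32 ± 1.62. Exon lengths are unions over all annotated transcripts. Of the exon bases of Cd247, 56.4% are shared with Pou2f1 on the opposite strand, and the library kits do not mark strand, so reads from that stretch cannot be told apart.

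Variation between libraries differed widely among the 10 genes. Over the 12 libraries the CV (coefficient of variation) of CPM was 11.3% for Lck and 13.0% for Cd4, beside a median of 24.6% over all tested genes, low ones included. The CD3 chain genes lay between 17% for Cd247 and 20.9% for Cd3g, with Lat and Zap70 both at 18.9%. Cd8b1 reached 37.4% and Cd8a 69.7%. Among the genes of most similar level, the CV stood at the percentile 95.4 for Cd8a and 83.8 for Cd8b1, 70.6 for Cd3g, 68.8 for Cd3e, 61 for Lat and 58.2 for Zap70. It stood at 52.2 for Cd3d, 47.8 for Cd247, 25.4 for Cd4 and 14.6 for Lck.

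**Figure D1:**
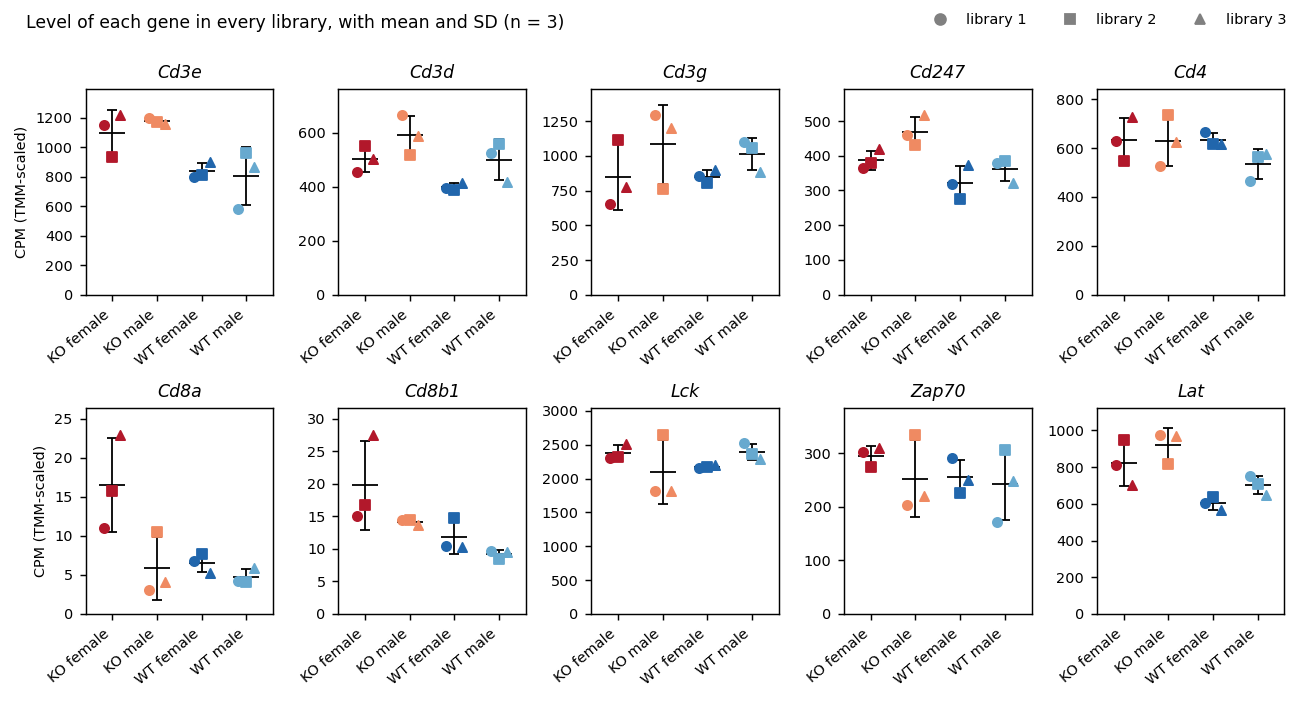
Level of each gene (vertical axes, CPM with library sizes scaled by the trimmed mean of M values, from 0) in the 3 libraries of each titled group (horizontal axes); symbols mark library 1, 2 or 3, and black lines give the mean and SD. Cd3e and Lat sat higher in most KO libraries, Cd3g split within both KO groups, and Cd8a was highest in KO females.

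Among the CD3 chains, the epsilon chain gene Cd3e showed the clearest separation by titled genotype. Cd3e had 1153, 931 and 1216 CPM in the KO female libraries and 1200.5, 1169 and 1159 CPM in the KO male libraries, against 801, 814 and 902 CPM in WT females and 582, 962 and 869 CPM in WT males. In 5 of the 6 KO libraries it lay above the highest WT library, and KO female 2 lay inside the WT range. Its mean was 1138 ± 104 CPM in KO and 821 ± 131 CPM in WT (SD, n = 6 each). The difference averaged over the sexes was 0.47 log2 units (SE 0.13, edgeR quasi-likelihood test, Benjamini-Hochberg adjusted p = 0.0765), which did not pass the threshold of 0.05.

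The delta chain gene Cd3d had 453, 551 and 504 CPM in KO females and 663, 519 and 587 CPM in KO males, against 397, 389 and 413 CPM in WT females and 525, 559 and 416 CPM in WT males. WT males and both KO groups overlapped. The zeta chain gene Cd247 had 365, 379 and 418 CPM in KO females and 459, 432 and 516 CPM in KO males, against 317, 275 and 373 CPM in WT females and 379, 386 and 323 CPM in WT males. Neither passed: the averaged difference was 0.28 log2 units for Cd3d (SE 0.11, edgeR adjusted p = 0.211) and 0.32 for Cd247 (SE 0.11, edgeR adjusted p = 0.158).

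The gamma chain gene Cd3g split within the KO label instead. It had 654, 1118 and 777 CPM in KO females and 1292, 761 and 1199.6 CPM in KO males, against 853, 803 and 895 CPM in WT females and 1098, 1060 and 884 CPM in WT males. Of the 6 KO libraries, 3 lay above every WT library (KO female 2, KO male 1 and KO male 3) and the other 3 below every WT library (KO female 1, KO female 3 and KO male 2). The mean was nearly level, at 967 ± 268 CPM in KO and 932 ± 119 CPM in WT (SD, n = 6 each), with an averaged difference of 0.05 log2 units (95% interval -0.28 to 0.37, edgeR adjusted p = 0.912).

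These 3 CD3 genes form a cluster on chromosome 9 (GRCm38). Cd3g (chr9:44969572-44980431, minus strand) and Cd3d (chr9:44981786-44987339, plus strand) lie head to head with 1354 bases between them, and Cd3e (chr9:44998740-45009627, minus strand) follows 11400 bases beyond Cd3d. Lat, the adaptor, is on chromosome 7 (chr7:126363824-126369570, minus strand). The windows around the RefSeq transcript starts of the cluster and of Lat are shown because their transcripts move together in some pairs and apart in others below. Each holds 300 bases of GRCm38.p6, 250 before the start and 50 after it, read 5′ to 3′ on the gene's own strand. They are chr9:44980382-44980681 for Cd3g, chr9:44981536-44981835 for Cd3d, chr9:45009562-45009861 for Cd3e and chr7:126369519-126369818 for Lat. Capitals mark CAGGAAG, a core sequence bound by ETS-family factors, found on either strand.
Cd3g: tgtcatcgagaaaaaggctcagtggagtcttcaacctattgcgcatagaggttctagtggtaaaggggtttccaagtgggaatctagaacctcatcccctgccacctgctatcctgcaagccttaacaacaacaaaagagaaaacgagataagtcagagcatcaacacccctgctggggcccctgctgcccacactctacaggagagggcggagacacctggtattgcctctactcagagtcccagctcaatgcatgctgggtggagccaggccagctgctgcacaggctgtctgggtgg
Cd3d: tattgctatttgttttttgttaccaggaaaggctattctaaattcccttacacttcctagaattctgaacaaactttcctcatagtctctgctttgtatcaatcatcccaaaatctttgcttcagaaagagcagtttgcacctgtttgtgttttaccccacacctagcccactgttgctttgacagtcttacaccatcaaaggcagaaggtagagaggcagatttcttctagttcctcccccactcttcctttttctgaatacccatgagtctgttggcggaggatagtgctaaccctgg
Cd3e: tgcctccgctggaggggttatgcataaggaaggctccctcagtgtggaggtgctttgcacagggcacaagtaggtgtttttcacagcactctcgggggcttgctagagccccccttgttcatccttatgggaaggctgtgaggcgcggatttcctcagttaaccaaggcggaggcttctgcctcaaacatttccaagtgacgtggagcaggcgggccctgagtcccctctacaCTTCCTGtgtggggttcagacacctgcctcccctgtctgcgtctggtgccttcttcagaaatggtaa
Lat: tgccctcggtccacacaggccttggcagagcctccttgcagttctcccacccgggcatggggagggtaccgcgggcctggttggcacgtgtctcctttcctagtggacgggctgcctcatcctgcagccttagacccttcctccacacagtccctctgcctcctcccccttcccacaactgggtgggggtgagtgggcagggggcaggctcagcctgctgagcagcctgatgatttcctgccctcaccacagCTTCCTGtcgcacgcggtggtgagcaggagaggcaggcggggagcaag

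Of the 10 genes, 8 had RefSeq windows, 11 in all; Cd4 and Cd8b1 are named only. The ETS core CAGGAAG was in 6 of the 11 windows and in 5 genes (Cd3e, Cd247, Lck, Zap70 and Lat), against 13.3% of all 32851 mouse windows of the same length. The estrogen response element GGTCANNNTGACC was in 0 of 11, against 0.0700% of all windows. Its arm AGGTCA was in 1 of 11, a window of Zap70, against 16.3%. Both strands were searched, no marked sites overlapped, and the 3 motifs were chosen with these sequences in view. A match is a run of letters and not a measured binding site.

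Within each library, Cd3g and Cd3d kept an almost fixed ratio outside 3 KO libraries. Cd3g had 1.44, 2.03 and 1.54 counts per Cd3d count in KO females and 1.95, 1.47 and 2.04 in KO males, against 2.15, 2.07 and 2.17 in WT females and 2.09, 1.89 and 2.13 in WT males. KO female 1, KO female 3 and KO male 2 stood below the other 9 libraries. The same 3 libraries had the lowest ratios of Cd3g to Cd3e, from 0.57 to 0.65, while the other KO libraries had 1.03 to 1.20 and the WT libraries 0.99 to 1.89. WT male 1 held the highest of these, as the library with the lowest Cd3e. A ratio between genes of one library does not depend on its scaling, and no test was made, since these libraries were noticed from the ratio itself.

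Of these 3, KO female 1 and KO female 3 had counts for the most genes of all 12 libraries, 21186 and 20289. KO male 2 had counts for 18793 genes, inside the WT range of 15951 to 19016, and the other KO libraries for 15042 to 18567. The part of this in the CD3 ratios was not tested. The 3 libraries carry both titled sexes, and Xist and Y-linked counts contradicted the title of KO female 1 and KO male 2 but not that of KO female 3.

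**Figure D2:**
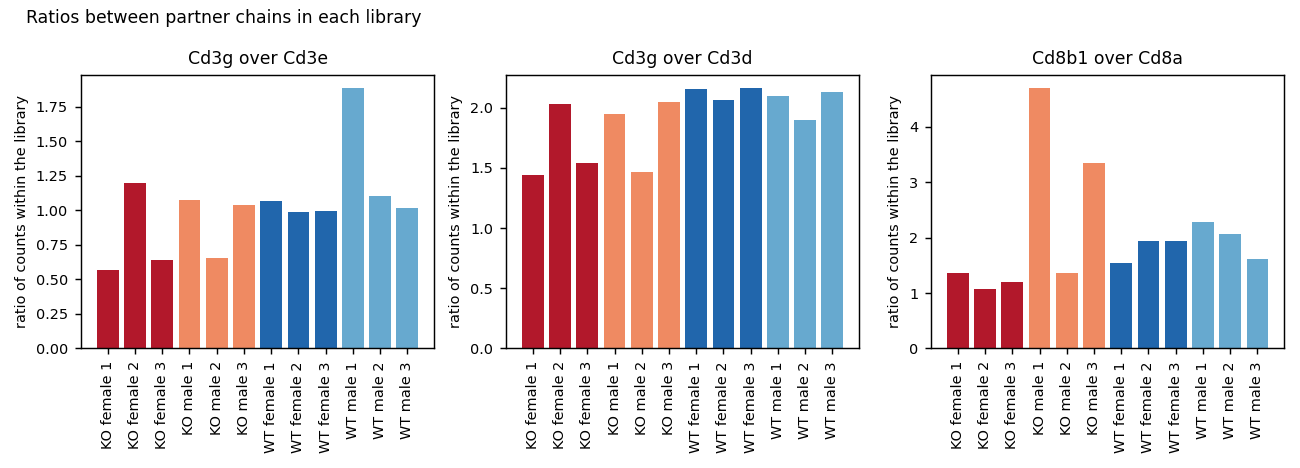
Ratio of counts between partner chains within each library (vertical axes, from 0) for Cd3g over Cd3e, Cd3g over Cd3d and Cd8b1 over Cd8a, with the 12 libraries along the horizontal axes and 1 bar per library, coloured by titled group. KO female 1, KO female 3 and KO male 2 stand low for Cd3g over both partners, and KO male 1 and KO male 3 stand high for Cd8b1 over Cd8a.

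The coreceptor of the sort, Cd4, did not separate the titles. It had 627, 546 and 726 CPM in KO females and 526, 733 and 627 CPM in KO males, against 667, 616 and 617 CPM in WT females and 465, 562 and 577 CPM in WT males. The averaged difference was 0.12 log2 units (95% interval -0.13 to 0.36, edgeR adjusted p = 0.669).

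The CD8 chains were present at low level and were higher in several KO libraries. Cd8a had 11, 15.8 and 23.0 CPM in KO females and 3.07, 10.5 and 4.08 CPM in KO males, against 6.75, 7.67 and 5.26 CPM in WT females and 4.22, 4.07 and 5.88 CPM in WT males. All KO females lay above every WT library, while KO male 1 was the lowest of all 12. Behind these values stood 38 to 252 counts in KO libraries and 59 to 116 in WT libraries. Cd8b1 had 15.0, 16.8 and 27.5 CPM in KO females and 14.5, 14.4 and 13.7 CPM in KO males, against 10.4, 14.8 and 10.2 CPM in WT females and 9.66, 8.41 and 9.46 CPM in WT males. WT female 2 was the single WT library inside the KO range. The averaged difference was 0.83 log2 units for Cd8a (SE 0.30, edgeR adjusted p = 0.189) and 0.68 for Cd8b1 (SE 0.19, edgeR adjusted p = 0.0835), and neither passed.

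Against Cd4 in the same library, Cd8a counts came to 0.58% to 3.17% in KO and 0.72% to 1.24% in WT. The balance of the CD8 chains differed as well. Cd8b1 had 4.71 and 3.36 counts per Cd8a count in KO male 1 and KO male 3, and 1.07 to 1.37 in the other KO libraries, against 1.54 to 2.29 in WT. CD8 protein on most conventional CD8 T cells pairs the alpha with the beta chain, and homodimers of the alpha chain occur on other cells, dendritic cells among them.

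Of the marker lists of other cells, that of B cells had the most genes passing the test between the titles. For the average KO effect, 1.50% of all tested genes passed in edgeR, 4.71% in DESeq2 and 4.36% in limma voom, and 15.9% had an unadjusted p under 0.05. The summed level of 18 markers of CD8 T and NK cells was 220 to 314 CPM in KO (median 285) and 161 to 280 CPM in WT (median 221). All 18 were detected over the libraries, with Nkg7 and Cd7 the most abundant, and 0 of 18 passed the edgeR test (3 had an unadjusted p under 0.05; DESeq2 called 1 and limma voom 0). The 14 B cell markers summed to 207 to 485 CPM in KO (median 331) and 48.9 to 275 CPM in WT (median 71.4), and 9 of 14 passed in edgeR, all higher in KO (12 had an unadjusted p under 0.05; DESeq2 called 12 and limma voom 1). Cd79b and Cd22 were the most abundant of them. Markers of monocytes and macrophages (12 of 13 in the table) summed to 196 to 474 CPM in KO and 29.3 to 398 CPM in WT, led by Lyz2 and Apoe, and 1 passed in edgeR (9 had an unadjusted p under 0.05; DESeq2 called 6 and limma voom 0).

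Dendritic cell markers (14 genes, led by Bst2 and Naaa) summed to 105 to 195 CPM in KO and 75.2 to 121 CPM in WT, and 1 passed in edgeR (4 had an unadjusted p under 0.05; DESeq2 called 2 and limma voom 0). Gamma-delta T cell markers (4 of 9 in the table, led by Il23r and Blk) summed to 11.8 to 19.2 CPM in KO and 9.40 to 24.0 CPM in WT. Thymocyte markers (8 genes, led by Cd1d1 and Cd24a) summed to 81.9 to 144 CPM in KO and 95.3 to 123 CPM in WT. Cd1d1 made up most of this sum, with a mean of 94.6 CPM in KO and 100 CPM in WT. Every other gene of the thymocyte list averaged higher in KO, Cd24a with 6.89 CPM against 2.20 CPM in WT. The median difference of the 5 tested thymocyte genes was 1.68 log2 units. Of the gamma-delta and thymocyte lists 0 genes passed in edgeR. An unadjusted p under 0.05 was found for 1 of 4 and 4 of 5 tested genes. DESeq2 called 1 in each list and limma voom 0. The 1 of 4 was Blk (1.91 log2 units, edgeR adjusted p = 0.0534), while Il23r, Sox13 and Cd163l1 had negative differences. No marker in the table was at 0 over all libraries. The library with the highest Cd8a and Cd8b1, KO female 3, also had the highest B cell, dendritic cell, and monocyte and macrophage sums. KO male 3 had the highest CD8 T and NK cell sum (314 CPM) and a B cell sum of 391 CPM, but only 4.08 CPM of Cd8a. The part of these cells in the CD8 values was not tested. In bulk RNA, fewer cells of a type and less RNA per cell cannot be told apart.

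The kinase genes Lck and Zap70 did not separate the titles. Lck had 2299, 2319 and 2515 CPM in KO females and 1822, 2649 and 1821 CPM in KO males, against 2152, 2179 and 2196 CPM in WT females and 2530.0, 2364 and 2292 CPM in WT males. KO male 1 and KO male 3 were the lowest of all 12 libraries, and KO male 2 was the highest. The averaged difference was -0.03 log2 units (95% interval -0.27 to 0.20, edgeR adjusted p = 0.921). Zap70 had 302, 273 and 310 CPM in KO females and 203, 334 and 219 CPM in KO males, against 290, 226 and 250 CPM in WT females and 172, 306 and 248 CPM in WT males, with an averaged difference of 0.13 log2 units (95% interval -0.20 to 0.46, edgeR adjusted p = 0.726).

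Lat, the scaffold that ZAP-70 phosphorylates, had 813, 945 and 701 CPM in KO females and 976, 818 and 972 CPM in KO males, against 603, 638 and 566 CPM in WT females and 751, 708 and 649 CPM in WT males. As with Cd3e, 5 of 6 KO libraries lay above every WT library. Here KO female 3 was the exception. The mean was 871 ± 111 CPM in KO and 652 ± 67.7 CPM in WT (SD, n = 6 each), and the averaged difference was 0.42 log2 units (SE 0.11, edgeR adjusted p = 0.0603), the smallest adjusted p of the 10 genes in this comparison. Without KO male 2 it passed, with 0.46 log2 units and an edgeR adjusted p of 0.0251. That setting called 3.79% of all tested genes, against 1.50% with all libraries.

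Across the 10 genes, 0 passed edgeR's quasi-likelihood test of the average KO effect over both sexes, in which 1.50% of all tested genes passed. At an unadjusted p under 0.05 there were 6 of 10 (Cd3e, Cd3d, Cd247, Cd8a, Cd8b1 and Lat), against 15.9% of all tested genes. The difference was positive for 9 of 10, with a median of 0.30 log2 units, against 0.02 over all tested genes. The 6 KO and 6 WT libraries overlapped for each of the 10 genes, while 2.40% of all tested genes had no overlap. DESeq2 called 3 of the 10 (Cd3e, Cd8b1 and Lat, adjusted p from 0.00322 to 0.0146) and limma voom 2 (Cd3e and Lat), beside 4.71% and 4.36% of all tested genes.

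**Figure D3:**
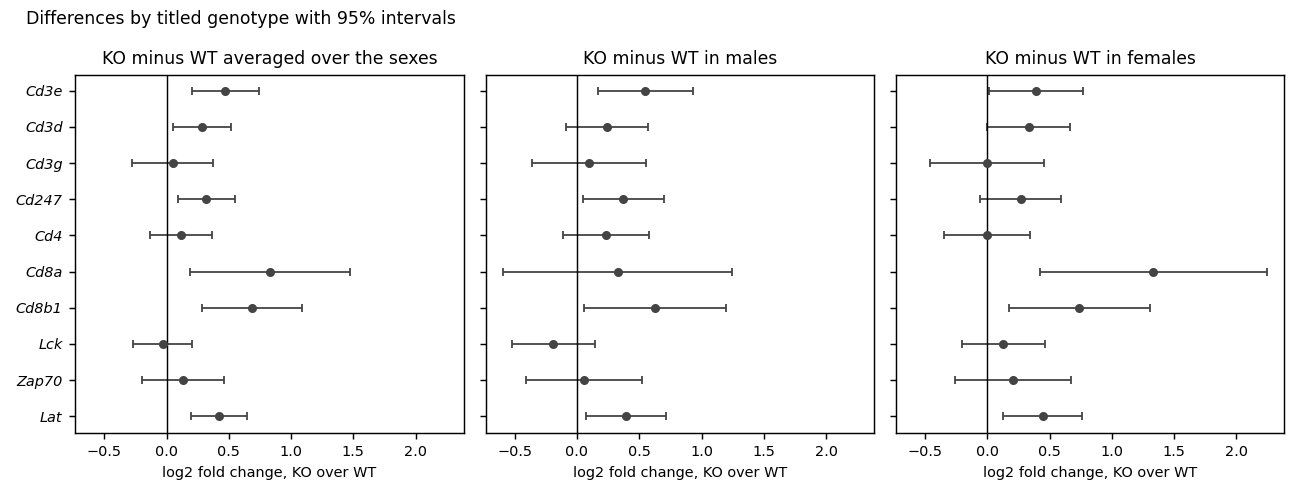
Log2 fold change of KO over WT (horizontal axes) with its 95% interval for each gene (rows), averaged over the sexes, in titled males and in titled females. In the average the intervals of Cd3g, Cd4, Lck and Zap70 include 0, and those of the other 6 genes do not; none of the 10 passed after adjustment over all tested genes.

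Within titled males, 0 of 10 genes passed the edgeR test (0.0730% of all tested genes did), and 4 of 10 had an unadjusted p under 0.05, against 14.2%. The 3 KO libraries lay above the 3 WT libraries for the same 4 genes, Cd3e, Cd247, Cd8b1 and Lat, and 6.95% of all tested genes were higher in KO without overlap. DESeq2 also called 0 of 10, beside 3.13% of all tested genes, and limma voom 0, beside 0%. The largest difference was 0.63 log2 units for Cd8b1 (SE 0.27, edgeR adjusted p = 0.306), followed by 0.55 for Cd3e (SE 0.18, edgeR adjusted p = 0.193).

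Within titled females, 0 of 10 passed (0% of all tested genes did), and 5 of 10 had an unadjusted p under 0.05, against 7.71%. KO lay above WT without overlap for 6 genes, Cd3e, Cd3d, Cd8a, Cd8b1, Lck and Lat, beside 9.20% of all tested genes. Cd8a had the largest difference, 1.33 log2 units (SE 0.43, edgeR adjusted p = 0.499). By limma voom with quality weights, 4 genes passed in females (Cd3e, Cd8a, Cd8b1 and Lat, adjusted p from 0.0110 to 0.0476), in a setting that called 12.4% of all tested genes. DESeq2 called 0 of 10, beside 0.161%. Both within-sex comparisons rest on titles that the sex-linked transcripts contradict in 4 libraries. The difference between the sexes in the KO effect passed for 0 of 10 genes (0% of all tested genes). DESeq2 also called 0, beside 0.0219%, and limma voom 0, beside 0%. In edgeR the difference had an unadjusted p under 0.05 for 0 of 10 (4.81%). Cd8a had the largest, 1.01 log2 units (SE 0.60, edgeR adjusted p = 0.900).

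Female minus male gave 0 passing genes of 10 within KO and 0 within WT, and 0% of all tested genes passed in either. At an unadjusted p under 0.05 there were 1 of 10 in KO (Cd8a, against 5.27% of all tested genes) and 0 of 10 in WT (6.52%). DESeq2 also called 0 in KO, beside 0% of all tested genes, and 0 in WT, beside 0.219%. Limma voom called 0 in KO, beside 0%, and 0 in WT, beside 2.54%. In KO, females lay above males without overlap for Cd8a and Cd8b1 (3.64% of all tested genes did) and below them for Cd247 (3.35%). In WT, females lay above males for Cd4 and Cd8b1 (7.55%) and below them for Cd3d, Lck and Lat (8.13%). The Cd8a difference in KO was 1.48 log2 units (SE 0.43, edgeR adjusted p = 0.849). Without KO male 2 it was 2.22 log2 units and passed (edgeR adjusted p = 0.0184), in a setting that called 2.26% of all tested genes. KO male 2 had 1016 Xist counts and 0 Y-linked counts. KO male 1 (3864 Xist, 0 Y-linked) and KO female 1 (1 Xist, 3987 Y-linked) also went against their titles and stayed in that fit. The contrast by title is therefore not a contrast by sex-linked transcripts.

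The genes did not vary as 1 block. Pearson's r was computed on log2 CPM over the 12 libraries for all 45 pairs, with 27 positive and 18 negative. After adjustment over the 45 pairs, 2 passed a two-sided permutation test. Cd3d and Lat had r = 0.84 (adjusted p = 0.0187) and rho = 0.86 (adjusted p = 0.0131), and r was 0.79 without the 2 libraries farthest from the median of Cd3d. Cd3d and Cd247 had r = 0.84 (adjusted p = 0.0187) and rho = 0.86 (adjusted p = 0.0131), and 0.77 without those libraries. Both pairs include the shift between the titles. Within titles, Cd3d and Lat had r = 0.74 in KO (exact p = 0.0819) and 0.81 in WT (exact p = 0.0722), and the WT value turned to -0.23 without the 2 farthest libraries. Cd3d and Cd247 had 0.68 in KO (exact p = 0.126) and 0.77 in WT (exact p = 0.0722).

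The head-to-head pair Cd3d and Cd3g had r = 0.69 over all libraries (permutation p = 0.0144, adjusted p = 0.105; rho = 0.67, permutation p = 0.0201, adjusted p = 0.0902), and 0.56 without the 2 farthest. Within each title it was tighter, at 0.93 in KO (exact p = 0.00417, adjusted p = 0.125) and 0.96 in WT (exact p = 0.0139, adjusted p = 0.0938), and 0.94 and 0.95 without the 2 farthest of each. Cd3e, their neighbour, and Cd3g had r = -0.13 over all libraries (permutation p = 0.692, adjusted p = 0.760; rho = -0.04, permutation p = 0.903, adjusted p = 1). That sign turned to 0.19 without WT male 1 and KO female 3. Within titles r was -0.26 in KO and -0.36 in WT, and 0.63 and 0.79 without the 2 farthest libraries of each.

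Among the coreceptors, Cd8a and Cd8b1 had r = 0.74 (permutation p = 0.00518, adjusted p = 0.0621; rho = 0.70, permutation p = 0.0141, adjusted p = 0.0902). It was 0.38 without KO female 2 and KO female 3. Within titles r was 0.72 in KO (exact p = 0.0486, adjusted p = 0.268) and 0.81 in WT (exact p = 0.0208, adjusted p = 0.0938). Without the 2 farthest libraries of each it was 0.95 and 0.47. Among 45 pairs, 0 passed in the 6 KO libraries (smallest adjusted exact p 0.125) and 4 in the 6 WT libraries, each with an adjusted exact p of 0.031. The exact test shuffled libraries across the titled sexes, so the values within a title include any shift between females and males. In WT, females lay above males without overlap for Cd4 and below them for Cd3d and Lck. Cd8a and Cd3d had r = -0.74 in KO and -0.93 in WT, Cd8a and Cd3g -0.65 in KO and -0.96 in WT, and Cd8a and Cd247 -0.69 in KO and -0.94 in WT. Lck and Cd4 had r = 0.67 in KO and -0.98 in WT. Without the 2 farthest WT libraries the WT values were -0.93, -0.97, -0.89 and -0.99. Whether KO and WT differ in these values was not tested. WT Cd8a rests on 59 to 116 counts a library.

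**Figure D4:**
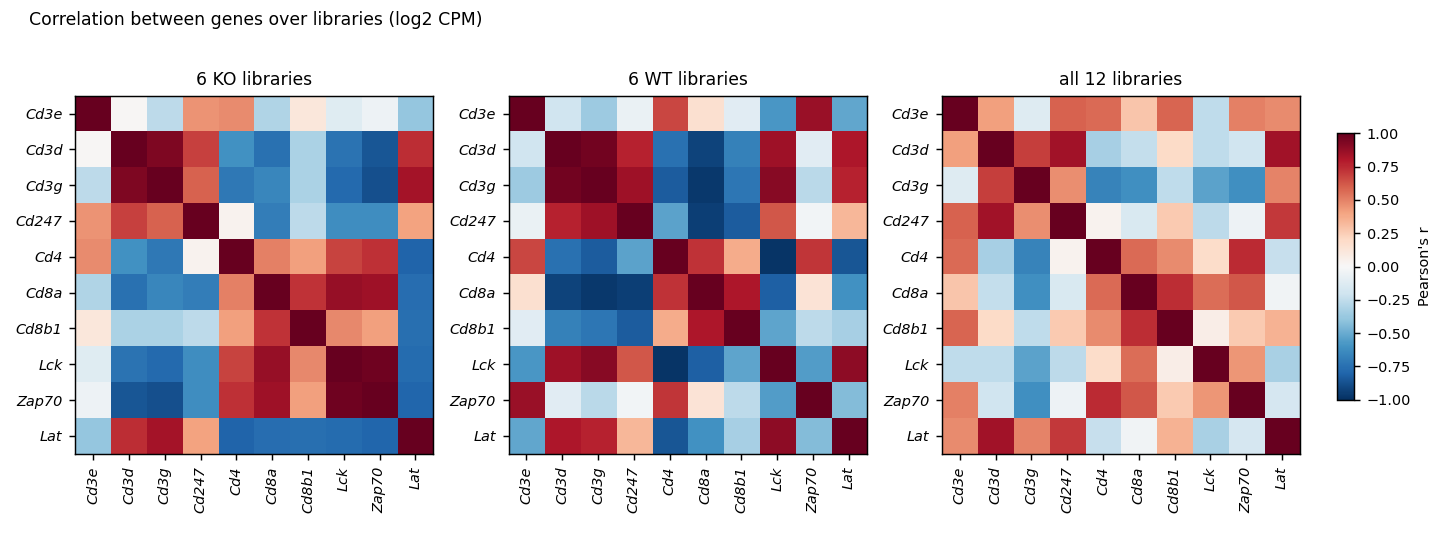
Pearson's r of log2 CPM between each pair of the 10 genes, as colour from -1 (blue) to 1 (red), over the 6 KO libraries, the 6 WT libraries and all 12 libraries. Cd3d and Cd3g are red in each panel, and Lck against Cd3d, Cd3g and Lat is blue in the KO panel and red in the WT panel.

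The genes most like a member were named as a description, with no p, among 10792 tested genes averaging at least 1 CPM; all points share the 12 libraries. For Cd3e they were S1pr4 (r = 0.96), Med19, Tnfrsf14, B3gat3 and Trim25. For Lck they were Adipor1 (r = 0.97), Ctnnbl1, Psmc3, Enoph1 and Pkm2, and for Cd4 Klhl17 (r = 0.94), Rnpepl1, Adrbk1, Sympk and Slc12a7. For Cd8a they were Plaur (r = 0.92), Myo1g, Cyhr1, Rasa3 and Trim28. For Cd8b1 they were Gpr146 (r = 0.92), Snord35b, Pou2af1, Ly86 and Lat2.

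Cd3g and Lat were added to this after their values were seen. Cd3g was most like Ift20 (r = 0.99), B2m, Tmem50a, Bod1l and Cklf, and Lat most like Reep4 (r = 0.95), Rln3, Slc7a6os, Plbd2 and Krtcap3. Of the 10792 genes, 289 had r of at least 0.8 with Cd3g and 333 had r of -0.8 or below. Together this was 5.76%, the highest share of the 10 genes. The share was 4.57% for Cd3d, 4.11% for Lck, 1.06% for Cd3e and 0.361% for Cd8b1. It was not computed for genes outside the 10, so whether 5.76% is high for a tested gene is not known.

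Further along the pathway, 73 genes of 5 lists were tested, of 83 named. The other 10 included 9 symbols that were not analysed here, the 7 receptor constant regions among them. In the average KO effect over both sexes, 1 of 73 passed (1.50% of all tested genes did), lower in KO, with a median over the 73 of -0.06 log2 units. At an unadjusted p under 0.05 there were 15 of 73, beside 15.9% of all tested genes, and 4 of 73 had groups without overlap, beside 2.40%. The passing gene was Ppp3r1, the regulatory subunit of calcineurin, the phosphatase that activates NFAT. It had a lowest, median and highest level of 103, 124 and 139 CPM in KO, against 172, 181 and 198 CPM in WT, so the groups did not overlap. It fell by 0.57 log2 units (SE 0.10, edgeR adjusted p = 0.0227). The call was lost without KO female 3, WT female 2, WT female 3, WT male 2 or WT male 3, each left out alone (adjusted p from 0.0524 to 0.0842). It was also lost without the 4 libraries against their titled sex (0.0722), with the libraries titled WT male #2 summed (0.0524) and with the replicate block (0.0848). Its difference stayed between -0.63 and -0.51 log2 units in all 23 settings.

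Of 15 genes downstream of LAT, 1 passed in edgeR (Ppp3r1) and 2 each in DESeq2 and limma voom (4.71% and 4.36% of all tested genes did), and 8 of 15 differences were positive. Of 11 costimulatory and accessory receptors, 0 passed in edgeR, 3 in DESeq2 and 3 in limma voom, and 4 of 11 had an unadjusted p under 0.05. Cd44, the hyaluronan receptor, had the smallest p (-0.47 log2 units, SE 0.12, edgeR adjusted p = 0.0576). Cd44 passed in 4 of 23 alternative settings, with an edgeR adjusted p of 0.0352 without KO female 2 and 0.178 without WT female 3. Of 14 kinases and phosphatases, 0 passed in edgeR and 1 in each other tool, and 5 had an unadjusted p under 0.05. The largest difference of the 73 pathway genes was that of the kinase Syk (1.89 log2 units, SE 0.58, edgeR adjusted p = 0.124). Syk had 10.9 to 37.2 CPM in KO and 0.207 to 28.1 CPM in WT. Ptpn22, a phosphatase that restrains Lck and ZAP-70, had the smallest p of its list (-0.38 log2 units, SE 0.11, edgeR adjusted p = 0.0858). Ptpn22 passed in 3 of 23 alternative settings, with an edgeR adjusted p of 0.0397 without KO male 2 and 0.238 without WT female 3. Of 18 adaptors and exchange factors, 0 passed in any of the 3 tools, and 1 had an unadjusted p under 0.05, Sos1, a Ras exchange factor (-0.41 log2 units, SE 0.16, edgeR adjusted p = 0.217). Of 15 negative regulators, 0 passed in edgeR and DESeq2 and 1 in limma voom. An unadjusted p under 0.05 was found for 2, and 11 of 15 differences were negative. Dgka, a diacylglycerol kinase, had the smallest p of this list (0.26 log2 units, SE 0.10, edgeR adjusted p = 0.202).

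Beside Ppp3r1 and Cd44, the groups without overlap were those of Orai1 and Cd5, named after their values were seen. Orai1, the pore of the store-operated calcium channel, had 91.5, 98.8 and 128 CPM (lowest, median, highest) in KO, against 71.3, 74.3 and 82.9 CPM in WT. The difference was 0.44 log2 units (SE 0.10, edgeR adjusted p = 0.0519). It passed in 7 of 23 alternative settings, with DESeq2 (adjusted p = 0.00237), limma voom (0.0185), 3 other scalings (0.0408 to 0.0477), without KO male 1 (0.0445) and without KO male 2 (0.0325). Cd5, a receptor that dampens TCR signals, differed by 0.35 log2 units (SE 0.10, edgeR adjusted p = 0.0980).

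**Figure D5:**
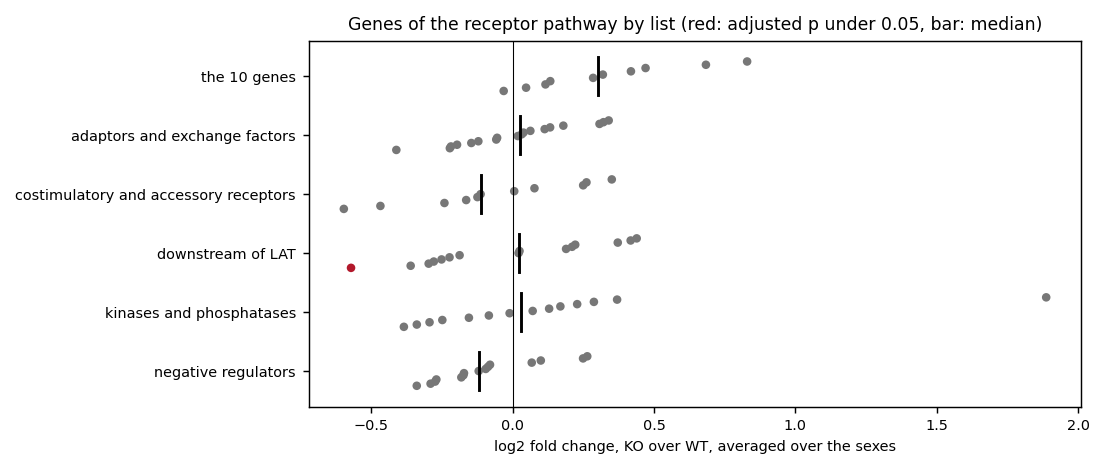
Log2 fold change of KO over WT averaged over the sexes (horizontal axis) for each of the 10 genes and each tested gene of the 5 pathway lists (rows); 1 point is a gene, black bars are medians, and red marks an adjusted p under 0.05. The median of the 10 genes is 0.30, and the single red point is Ppp3r1 at -0.57.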

How the data were processed

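The authors deposited raw read counts per gene symbol (26609 genes, 12 libraries) and log2 values for 24584 of them. Per the labels' protocols, SMART-Seq v4 was used for cDNA and Nextera XT for library construction. GRCm38 was the genome build, and edgeR, featureCounts 1.5.0-p2, Subread and HISAT2 2.0.5 were used, per the submitters' processing notes. The deposited log2 values matched log2 CPM recomputed with edgeR at a prior count of 0.25 and scaled by TMM (trimmed mean of M values) to within 5.0e-14.

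Counts were filtered with filterByExpr, which kept 99.8% or more of every library. A single edgeR 4.0.16 quasi-likelihood model of 4 group means was fitted to all 12 libraries (R 4.3.3, robust dispersion, common biological coefficient of variation 29.3%), with two-sided tests adjusted by Benjamini-Hochberg over 13692 genes. Fold changes are KO over WT or female over male. SE were derived from the F statistic. Alternatives used DESeq2 1.42.0, limma 3.58.1, other scalings, no filter, a replicate block and libraries left out. Correlations used 100000 resamples, or all orders for 6 libraries. The scripts were also run on simulated counts.

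The genes, lists and motifs were chosen with earlier results of these data known. Named were the 10 genes, passing pathway genes or else the smallest p of each list, the 2 most abundant markers per list and the 5 genes most like Cd3e, Cd4, Lck, Cd8a and Cd8b1. Exon lengths and gene positions came from GENCODE vM21, and promoter windows from RefSeq (GRCm38.p6). The number 2 stands on 2 WT male titles; both libraries were kept. The sources used here do not give the annotation release or the strand setting of the counting.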

Additional observations from a re-analysis of the deposited data

Results flagged for a closer look

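Each gene was examined in the 6 KO and the 6 WT libraries, 20 groups in all, for a highest or lowest library far from the rest (gap over range above 0.625). Chance flags about 1 in 20 groups, and 3 were found. Cd3e had 931 CPM in KO female 2, while the other KO libraries had 1153 to 1216 CPM. Cd8b1 had 27.5 CPM in KO female 3, while the other KO libraries had 13.7 to 16.8 CPM. Cd8b1 had 14.8 CPM in WT female 2, while the other WT libraries had 8.41 to 10.4 CPM.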

How the results depend on the processing

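For the average KO effect over both sexes, the count of passing genes among the 10 was 0 with edgeR and 3 with DESeq2 (Cd3e, Cd8b1 and Lat, of 644 genes called). It was 2 with limma voom (Cd3e and Lat), 1 with upper quartile scaling and 1 with no filter on low counts (Cd3e in both). Of all tested genes, 1.50%, 4.71%, 4.36%, 1.43% and 2.55% passed, in that order. The count ranged from 0 to 1 when each library was left out. The 1 was Lat without KO male 2, where 3.79% of all tested genes passed. Without KO female 1, KO female 3 and KO male 2 together, the Lat difference was 0.56 log2 units, in a setting chosen after seeing the data. That fit left 1 KO female library, so its count of passing genes is not given. In females limma voom gave 4, beside 12.4% of all tested genes. Female minus male in KO ranged from 0 to 1 with a library left out. The 1 was Cd8a without KO male 2, where 2.26% of all tested genes passed, against 0% with all libraries. The count of correlated pairs ranged from 0, without WT female 1 or WT female 2, to 4, without KO female 2 or WT male 1. For all settings and comparisons not named here the count of passing genes was 0. The causes were not tested.

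With the title number as a replicate block, 0 of the 10 passed in each of the 6 comparisons, and 9 genes passed overall for the average, against 206. Libraries with the same number did not deviate together (r from -0.21 to 0.13, median -0.03, 18 pairs), and 2 of 12 correlated best with their own number. No called value changed direction. Uncalled differences near 0 changed sign in 10 of 230 cases for the average, and in the average Cd3g ran from -0.08 to 0.34 log2 units.

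Cd8a, at 38 to 252 counts, is the gene most limited by depth.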
